A study of Mus musculus with 16 samples.

Results

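The 9 transcription factor genes Myod1, Myog, Myf5, Myf6, Pax7, Mef2a, Mef2c, Mef2d and Foxn2 were followed in mouse quadriceps before and after a bout of running. They were chosen by gene symbol. All 9 were found among the 23970 symbols of the expression table, each in a single entry. The 16 libraries came from 16 male C57BL/6NTac mice with an age of 16 weeks, 4 in each of 4 groups. CON mice ate a control diet and HFD mice a high-fat diet. CON-pre and HFD-pre muscles were taken at rest, while CON-post and HFD-post muscles were taken 3 h after treadmill running to exhaustion. The pre mice had the same treadmill acclimatisation and fasting, and they were other mice than the post mice, so no change was followed within 1 animal. Expression is in FPKM, the fragments assigned to a gene relative to its transcript length and to all fragments mapped, so levels of different genes can be compared.

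Myod1, Myf5, Myog and Myf6 encode the myogenic regulatory factors (MRFs), basic helix-loop-helix proteins that pair with E proteins and bind E-boxes to switch on muscle genes. MyoD and Myf5 commit cells to the muscle lineage, myogenin drives the differentiation and fusion of myoblasts, and Myf6 (MRF4) is the MRF that prevails in mature fibres. MEF2 proteins (here from Mef2a, Mef2c and Mef2d) bind A/T-rich sites and act with the MRFs, and class II histone deacetylases hold them inactive until kinases export those deacetylases. Pax7 marks satellite cells, the stem cells that lie along the fibre, and Foxn2 encodes a forkhead-box protein.

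The letters that both families are known to bind occur in front of some of their own genes. The bases before the gene start are shown for Myog, a gene known to be driven by both families, and for Mef2c, the most abundant factor here and the one with the clearest fall. Mef2c has 3 promoters in the table used, of which the first is shown. Both come from RefSeq, GRCm38.p6, and run 5′ to 3′ on the plus strand. Capitals mark E-boxes (CANNTG, which reads the same on both strands) and a MEF2 core (TA, then 4 bases that are each A or T, then TA, searched on both strands), and no motif overlaps another in them.
Myog, chr1:134289754-134290003: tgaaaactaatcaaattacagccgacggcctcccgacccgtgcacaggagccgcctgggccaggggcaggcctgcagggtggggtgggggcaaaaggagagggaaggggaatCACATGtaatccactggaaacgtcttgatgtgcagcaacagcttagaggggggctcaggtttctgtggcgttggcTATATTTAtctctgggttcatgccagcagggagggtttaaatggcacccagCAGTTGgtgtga
Mef2c, chr13:83503784-83504016: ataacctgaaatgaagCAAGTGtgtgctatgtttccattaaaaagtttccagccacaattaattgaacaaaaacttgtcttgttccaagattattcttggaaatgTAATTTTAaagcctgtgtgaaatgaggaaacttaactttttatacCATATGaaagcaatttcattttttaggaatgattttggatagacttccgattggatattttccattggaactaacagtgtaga
The Myog stretch of 250 bases held the E-boxes CACATG and CAGTTG and the MEF2 core TATATTTA, the latter between positions -63 and -56 from the start. The Mef2c stretch of 233 bases held the E-boxes CAAGTG and CATATG and the MEF2 core TAATTTTA. In a table of 32851 mouse promoters cut to the same 250 bases before the start, 66.2% held an E-box and 8.56% a MEF2 core. A match of these letters is not a site of binding. Of the 9 genes, 6 were in that table, with 8 promoters between them. Among them, the Myog promoter and the Mef2c promoter shown held a MEF2 core. The other 2 promoters of Mef2c held none, and 1 of them held an E-box. The promoters of Mef2d, Pax7, Mef2a and Myf5 held neither motif.

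In GRCm38.p6, Myf5 and Myf6 are neighbours. Myf5 lies at chr10:107482908-107486927 and Myf6 at chr10:107492848-107494723, with 5920 bases between them. Myod1 lies at chr7:46376474-46379092, Myog at chr1:134290004-134292548 and Pax7 at chr4:139737059-139833530. Mef2a lies at chr7:67231163-67376456, Mef2c at chr13:83504017-83667079, Mef2d at chr3:88141941-88172091 and Foxn2 at chr17:88440704-88490533. The expression table gives no coordinates, so these are the whole genes of RefSeq.

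The libraries were alike in scale. Summed FPKM ran from 283575 to 329282 per library, and 8751 to 9579 symbols were listed at 0. Read counts were not used here, and genes of at most 0.5 FPKM gave a depth of 0.705 to 1.12 relative to CON-pre replicate 1. Fibre markers were abundant in each library, where the 9 of them summed to at least 48688.5 FPKM. Acta1, skeletal muscle actin, had 16069 ± 1313 FPKM in CON-pre (SD, n = 4), which matches the labelled tissue. CON-pre replicate 3 stood apart in a few genes of the embryonic fibre, which are given with the values of Myog. B cell markers summed to at most 1.42 FPKM. In bulk muscle, fewer cells of a type cannot be told apart from less RNA per cell.

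The factors differed widely in level. Mef2c stood highest with a mean of 94.4 FPKM over the 16 libraries, followed by Myf6 with 57.5, Mef2d with 32.2 and Mef2a with 28.4. Myod1 had 5.21 FPKM, Foxn2 2.34 and Myog 1.44, while Myf5 had 0.424 and Pax7 0.291. No factor was listed at 0 in any library. Not every step of this order was separable. Mef2c was above Myf6 in 15 of 16 libraries, Mef2d above Mef2a in 15 and Foxn2 above Myog in 14, and in each of these pairs the ranges overlapped. Myf5 and Pax7 could not be ordered, since Myf5 was higher in 9 of 16 libraries. By contrast, the range of Myf6 lay above that of Mef2d, that of Mef2a above that of Myod1 and that of Myod1 above that of Foxn2. Myf6 was thus the main MRF of adult quadriceps, at 87.1% of the summed MRF FPKM in CON-pre, 91.0% in CON-post, 87.0% in HFD-pre and 89.4% in HFD-post (means of 4). The coefficient of variation within a group was 4.91% for Mef2c, 6.52% for Mef2a, 7.80% for Mef2d, 14.4% for Myf6, 15.7% for Pax7, 17.7% for Myod1, 21.1% for Foxn2, 39.1% for Myog and 56.7% for Myf5.

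**Figure D1:**
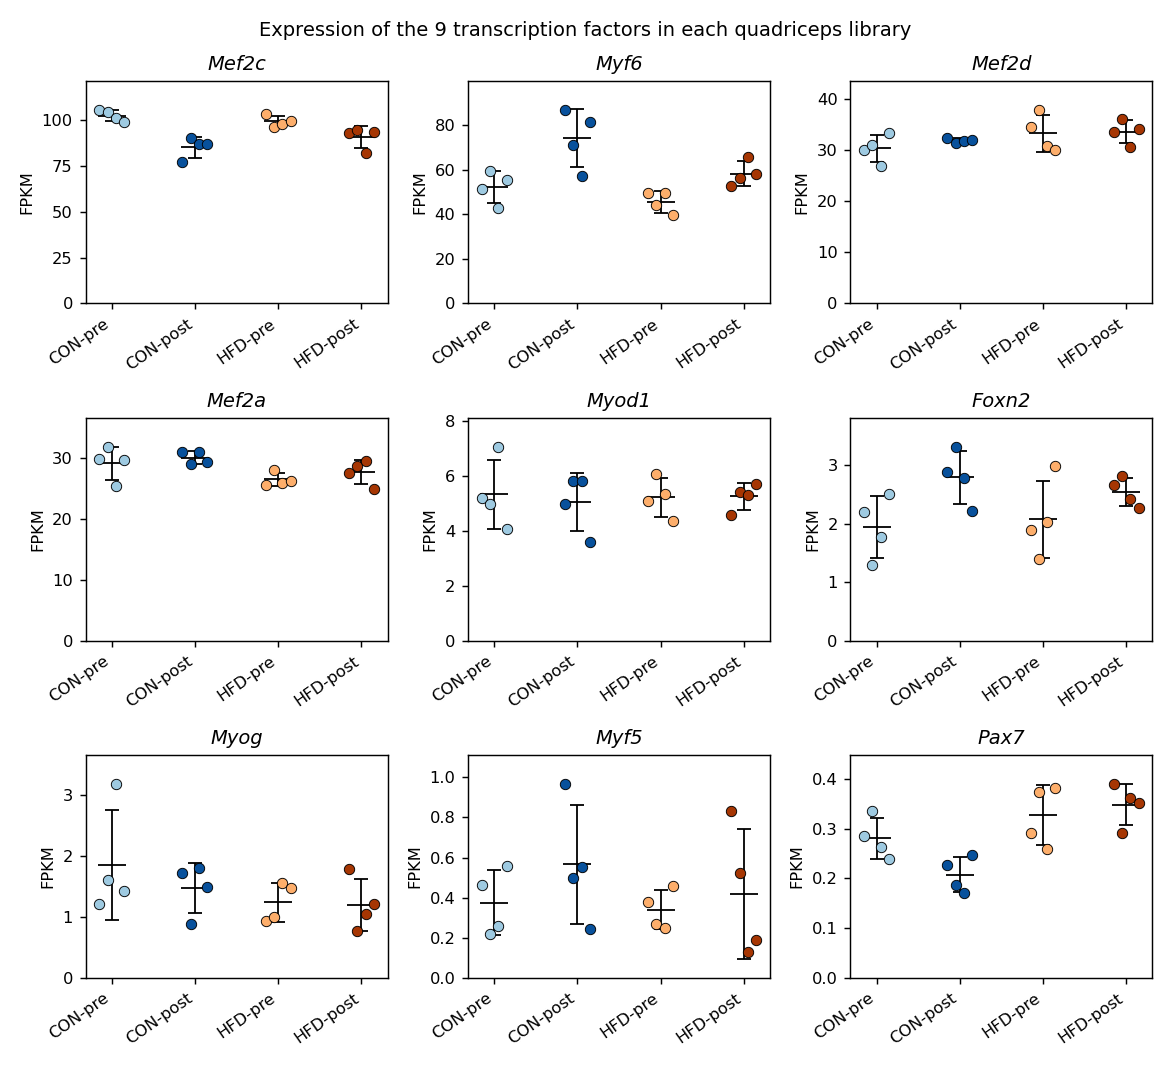
FPKM of each factor (y axis, starting at 0) in the 4 groups (x axis), with 1 point per library and the mean with its SD (n = 4) as bars. Mef2c lies lower in the post groups (77.0 to 94.6) than in the pre groups (96.1 to 105), and Myf6 lies higher after the bout.

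Do the factors respond to a single bout of running? Myf6 did, upward. It had 51.3, 59.5, 42.9 and 55.5 FPKM in the 4 CON-pre libraries and 86.7, 71.0, 57.0 and 81.4 in CON-post. The highest CON-pre library was above the lowest CON-post library, so these groups overlapped. Myf6 had 49.4, 44.0, 49.6 and 39.5 FPKM in HFD-pre and 52.7, 56.3, 65.9 and 58.1 in HFD-post. In HFD, all post libraries were above all pre libraries. Over both diets, Myf6 averaged 66.1 ± 12.6 FPKM after the bout and 49.0 ± 6.68 before it (SD, n = 8), a ratio of 1.35. On the scale of log2(FPKM + 0.5), on which all differences below were tested, it rose by 0.42 ± 0.090 (SE) with an adjusted p of 0.0148 (limma, Benjamini-Hochberg over 11256 genes).

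Mef2c, the MEF2 gene with the highest level, moved the other way. Its values were 105, 104, 101 and 98.8 FPKM in CON-pre and 77.0, 90.1, 87.2 and 86.8 in CON-post. With HFD they were 103, 96.1, 97.9 and 99.5 FPKM before and 92.9, 94.6, 82.0 and 93.7 after the bout. All 8 post libraries were below all 8 pre libraries, a pattern that 0.151% of all genes showed in this direction. The means were 88.0 ± 6.15 FPKM after and 101 ± 3.30 FPKM before exercise, a ratio of 0.873. Mef2c fell by 0.20 on the log2 scale (SE 0.044, limma adjusted p = 0.0199).

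These were the 2 calls among the 7 factors in the fit. Over all genes, 3.86% were called in this comparison, 2.95% higher and 0.915% lower, so that 76.3% of the calls were higher. That share was 57.1% after scaling by the upper quartile, 63.7% by median of ratios and 54.0% by quantiles. Myf6 lost its call after quantile scaling (limma adjusted p = 0.0523) and Mef2c without CON-pre replicate 1 (limma adjusted p = 0.0524), and each was called in the other 25 of 26 alternative analyses. Both calls rest on all 16 libraries. Within CON, Myf6 was 0.49 ± 0.13 higher on the log2 scale (limma adjusted p = 0.0842) and Mef2c 0.27 lower (log2 difference -0.27 ± 0.063, limma adjusted p = 0.0543). Within HFD, the log2 differences were 0.35 ± 0.13 for Myf6 (limma adjusted p = 0.285) and -0.13 ± 0.063 for Mef2c (limma adjusted p = 0.441). Thus no factor passed within 1 diet, where 1.11% of all genes were called in CON and 0.542% in HFD. Groups did not overlap for 1 of 7 factors in CON (Mef2c) and for 2 of 7 in HFD (Myf6 and Mef2c), beside 5.82% and 6.81% of all genes. At an unadjusted p under 0.05, 3 of 7 factors were found in CON and 1 of 7 in HFD, beside 11.1% and 11.7% of all genes. The difference between the diets in these responses was also tested. The interaction of diet and exercise was -0.14 for Myf6 (95% interval -0.52 to 0.24) and 0.14 for Mef2c (-0.05 to 0.32), each on the log2 scale with a limma adjusted p of 0.9999. In that test 0 genes were called by limma, and 356 of 11256 had an unadjusted p under 0.05.

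**Figure D2:**
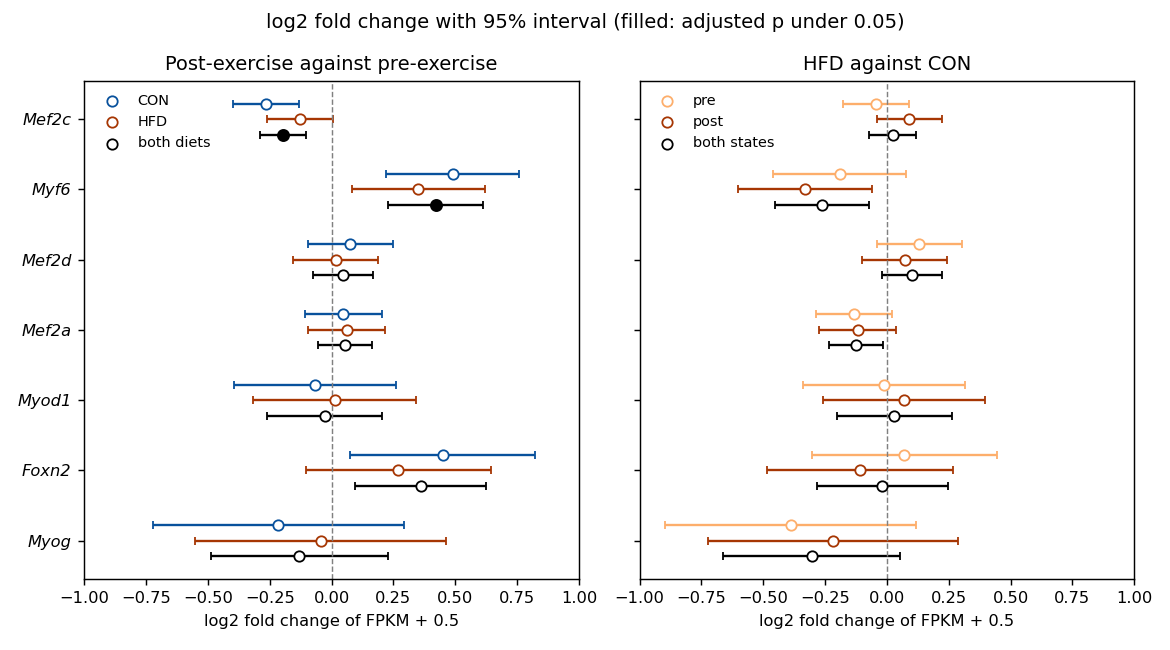
Difference on the log2(FPKM + 0.5) scale (x axis) with its 95% interval for the 7 factors in the fit (y axis), post against pre on the left and HFD against CON on the right. Only Myf6 (0.42) and Mef2c (-0.20) are filled, that is called, in post against pre over both diets.

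Some cell type markers differed in the same comparison. Pecam1, an endothelial gene, rose by 0.36 (limma adjusted p = 0.00141), the only one of 8 endothelial markers called, 4 of which were higher and 0 lower at an unadjusted p under 0.05 (18.5% of all genes in either direction), and the list summed to 57.9 to 75.7 FPKM in CON-pre, 70.7 to 87.9 in CON-post, 64.6 to 79.3 in HFD-pre and 72.1 to 82.1 in HFD-post. Tagln, of smooth muscle, rose by 0.43 (limma adjusted p = 0.0215), the only one of 4 called, 3 of which were higher at an unadjusted p under 0.05. None of 9 muscle fibre markers was called (limma adjusted p under 0.05), with 2 lower and 0 higher at an unadjusted p under 0.05. Their FPKM summed to a median of 66126 in CON-pre and 58464 in CON-post, and to 57518 in HFD-pre and 54622 in HFD-post. The 6 adipocyte markers were all higher on average after the bout, with 0 called by limma and 1 at an unadjusted p under 0.05, and their median log2 difference was 0.27 against 0.01 for all genes (0.10 in CON and 0.48 in HFD). By limma 0 of 7 fibro-adipogenic, 0 of 6 macrophage and 0 of 4 Schwann cell markers were called, and at an unadjusted p under 0.05 these counts were 0, 0 and 1. The part of these markers in the differences of Myf6 and Mef2c was not tested.

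Since one rose and the other fell, the balance of the 2 most abundant factors shifted. Mef2c had 1.99 times the FPKM of Myf6 in CON-pre and 2.19 times in HFD-pre, but 1.19 times in CON-post and 1.58 times in HFD-post (means of 4 ratios). The only library with more Myf6 than Mef2c was CON-post replicate 1, with 86.7 and 77.0 FPKM. Over the 16 libraries the log2 values of both genes had a Pearson r of -0.74, a description that includes the difference between pre and post. Mef2c made up 63.3% of the summed FPKM of Mef2a, Mef2c and Mef2d in CON-pre, 57.9% in CON-post, 62.4% in HFD-pre and 59.7% in HFD-post.

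**Figure D3:**
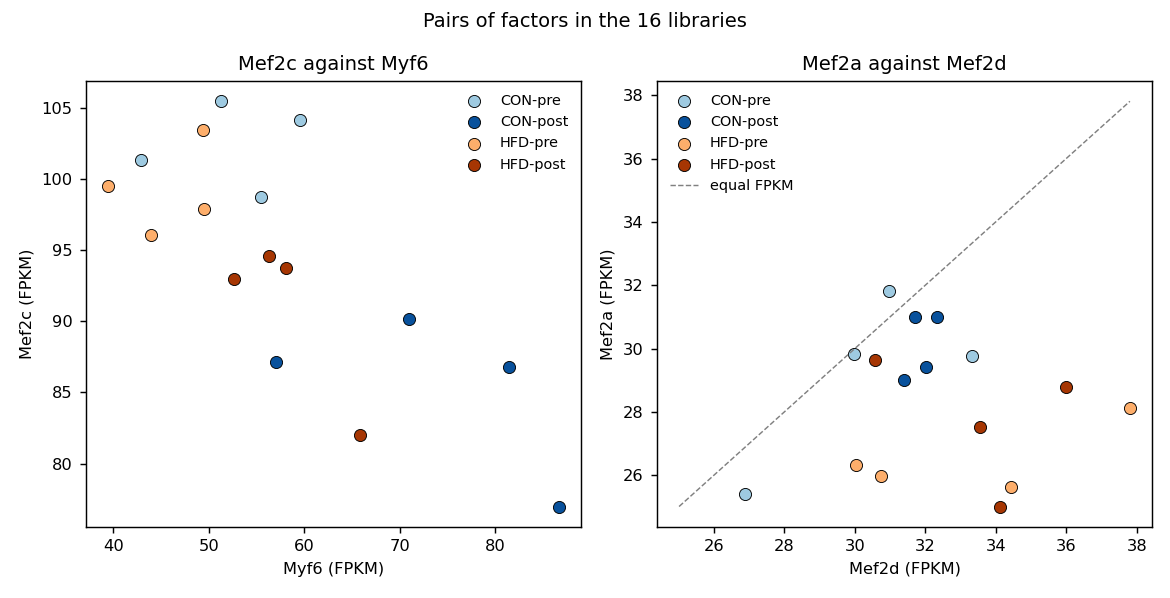
FPKM of Mef2c (y axis) against Myf6 (x axis) on the left and of Mef2a (y axis) against Mef2d (x axis) on the right, with 1 point per library coloured by group and, on the right, a dashed line of equal FPKM. The axes do not start at 0. The pre libraries lie at the top left and the post libraries at the lower right in the plot of Mef2c against Myf6, and the ratio of Mef2a to Mef2d in the plot on the right is 0.733 to 0.970 in the HFD libraries and 0.892 to 1.03 in the CON libraries.

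Mef2a and Mef2d, the other MEF2 genes, were not called for the bout. Mef2a had 29.8, 31.8, 25.4 and 29.8 FPKM in CON-pre and 31.0, 29.0, 31.0 and 29.4 in CON-post. In HFD-pre it had 25.6, 28.1, 26.0 and 26.3 FPKM, and in HFD-post 27.5, 28.8, 29.6 and 25.0. Pre and post overlapped in both diets, and over both diets the log2 difference was 0.05 with a 95% interval of -0.06 to 0.16. Mef2d had 30.0, 31.0, 26.9 and 33.3 FPKM in CON-pre, 32.3, 31.4, 31.7 and 32.0 in CON-post, 34.4, 37.8, 30.8 and 30.0 in HFD-pre and 33.5, 36.0, 30.6 and 34.1 in HFD-post. Its log2 difference after the bout was 0.05, with an interval of -0.08 to 0.17, so that a rise or fall as large as that of Mef2c lay outside the intervals of both genes.

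The low MRFs and Foxn2 were less precise. Myod1 had 5.20, 4.97, 7.05 and 4.07 FPKM in CON-pre, 4.99, 5.80, 5.81 and 3.59 in CON-post, 5.09, 6.07, 5.34 and 4.36 in HFD-pre and 4.56, 5.42, 5.31 and 5.71 in HFD-post. Its groups overlapped in every comparison, and the log2 difference between post and pre was -0.03 (interval -0.26 to 0.20). Myog had 1.21, 1.61, 3.18 and 1.42 FPKM in CON-pre, 1.72, 0.878, 1.81 and 1.5 in CON-post, 0.927, 0.994, 1.56 and 1.47 in HFD-pre and 1.78, 0.767, 1.05 and 1.21 in HFD-post. Here the log2 difference was -0.13 with an interval of -0.49 to 0.23, wide enough to hold a change as large as that of Mef2c.

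CON-pre replicate 3 held both the highest Myod1 (7.05 FPKM) and the highest Myog (3.18 FPKM) of all libraries. Genes of the embryonic or fusing fibre, singled out after their values were seen, were also examined there. Tmem8c (myomaker, which fuses myoblasts) had 2.77 FPKM against at most 0.321 in the other 15 libraries, 11 of which listed it at 0. Chrng, the fetal subunit of the acetylcholine receptor, had 0.960 FPKM against at most 0.142. Embryonic myosin Myh3 had 5.87 FPKM against 0.905 to 1.86. Fetal genes Myl4 (5.91 FPKM, others at most 4.40) and Actc1 (219.6 FPKM, others at most 191) were highest there by a smaller margin. Perinatal myosin Myh8 had 101 FPKM (others 89.5 to 149) and Gm7325, another gene of myoblast fusion, had 0.315 FPKM against at most 0.453. Without this library the log2 difference of Myog between CON-post and CON-pre was 0.0222 in place of -0.22, and neither was called. Over both diets without it, Myf6 was 0.37 higher (limma adjusted p = 0.0308) and the log2 difference of Mef2c was -0.20 (limma adjusted p = 0.0366).

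Foxn2 was on average higher after the bout without passing the test. It had 2.20, 1.29, 1.78 and 2.50 FPKM in CON-pre and 2.89, 3.31, 2.78 and 2.21 in CON-post. In HFD-pre it had 1.90, 1.40, 2.03 and 2.98 FPKM and in HFD-post 2.66, 2.81, 2.42 and 2.28. Pre and post overlapped in both diets, and the log2 difference over both was 0.36 ± 0.13 (limma adjusted p = 0.131, unadjusted p = 0.0110). In both pre groups replicate 2 was lowest and replicate 4 highest, and these were also the libraries of lowest and highest relative depth in each, 0.705 and 1.10 in CON-pre and 0.760 and 1.12 in HFD-pre. The post groups did not follow this order, since CON-post replicate 4 had the lowest Foxn2 (2.21 FPKM) at the highest depth of its group (1.06). In HFD-post, the highest Foxn2 (2.81 FPKM) was at a depth of 0.979 and the lowest (2.28 FPKM) at 0.809. The part of depth in the values of Foxn2 was not tested. The genes most like Foxn2 over the 16 libraries were Mrpl27 (Pearson r = 0.92), Rps19 (0.91) and Eef1b2 (0.91), which encode a mitochondrial and a cytosolic ribosomal protein and a translation elongation factor. Of its relatives, Foxn3 was the one gene in the fit (log2 difference 0.03, not called), and Foxn4 was listed at 0 in all libraries.

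Myf5 and Pax7, the genes of the satellite cell and its committed progeny, lay under the filter of a mean of 0.5 FPKM and were compared by exact two-sided permutation tests, 12 in all. Myf5 had 0.462, 0.218, 0.258 and 0.558 FPKM in CON-pre, 0.966, 0.50, 0.553 and 0.243 in CON-post, 0.378, 0.270, 0.250 and 0.457 in HFD-pre and 0.833, 0.524, 0.130 and 0.190 in HFD-post. The groups overlapped throughout, and the exact permutation p lay between 0.314 and 0.857. Nothing could be resolved at this level and scatter.

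Pax7 was less scattered. It had 0.285, 0.336, 0.263 and 0.239 FPKM in CON-pre, 0.226, 0.186, 0.171 and 0.247 in CON-post, 0.291, 0.374, 0.260 and 0.383 in HFD-pre and 0.390, 0.292, 0.362 and 0.352 in HFD-post. All HFD-post libraries were above all CON-post libraries, with means of 0.349 and 0.208 FPKM (exact permutation p = 0.0286, the smallest that 4 against 4 can give). Groups did not overlap for 3.16% of the genes tested in this comparison, and fitted with all genes without a filter Pax7 had a limma adjusted p of 0.300 in it. Over both states, HFD libraries averaged 0.338 FPKM and CON libraries 0.244 FPKM, a log2 difference of 0.17 (exact permutation p = 0.003885). In the same fit without a filter, this difference had a limma adjusted p of 0.184, and neither was called. Before exercise, Pax7 averaged 0.327 FPKM in HFD and 0.281 FPKM in CON, with overlap (exact permutation p = 0.229). In CON it averaged 0.208 FPKM after the bout and 0.281 FPKM before it (exact permutation p = 0.0571). There, 3 of 4 CON-post libraries were below all CON-pre libraries. In HFD the means after and before were 0.349 and 0.327 FPKM (exact permutation p = 0.6). Of the 9 satellite cell markers, 5 were tested. None of them was called with diet or exercise (limma adjusted p under 0.05), and the most abundant, Sdc4, was 0.27 higher on the log2 scale after the bout (limma adjusted p = 0.0898, unadjusted p = 0.00558). The satellite cell list summed to 19.5 to 23.3 FPKM in CON-pre, 23.5 to 24.7 in CON-post, 18.9 to 23.4 in HFD-pre and 20.8 to 25.8 in HFD-post.

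What did the high-fat diet change? None of the 7 factors in the fit was called by limma for diet, beside 0.346% of all genes before exercise, 0.151% after it and 0.959% over both states. At an unadjusted p under 0.05, 2 of 7 were found over both states, as were 10.4% of all genes. These were Myf6, 0.26 lower in HFD (log2 difference -0.26 ± 0.090, limma adjusted p = 0.245), and Mef2a, 0.13 lower (log2 difference -0.13 ± 0.052, limma adjusted p = 0.381). After the bout, Myf6 averaged 74.0 ± 13.1 FPKM in CON and 58.2 ± 5.55 FPKM in HFD (SD, n = 4), with a log2 difference of -0.33 ± 0.13 and a limma adjusted p of 0.644. It was the 1 of 7 factors at an unadjusted p under 0.05 in that comparison, beside 6.29% of all genes. Mef2d was not called either (log2 difference 0.10, interval -0.02 to 0.22, limma adjusted p = 0.589). Myog had the largest log2 difference of the 7 over both states, -0.30, without being called (interval -0.66 to 0.05, limma adjusted p = 0.574). Without CON-pre replicate 3 it was -0.19. The ratio of Mef2a to Mef2d in FPKM was 0.892 to 1.03 in CON-pre and 0.919 to 0.977 in CON-post, against 0.744 to 0.876 in HFD-pre and 0.733 to 0.970 in HFD-post, a description without a test.

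The adipocyte markers differed between the diets. Leptin (Lep) was higher in HFD by 2.54 on the log2 scale and Cfd was lower by 1.77 (log2 difference -1.77), the 2 of 6 that were called, and the list summed to 123 to 197 FPKM in CON-pre and 63.6 to 76.6 in HFD-pre, without overlap. After the bout the sums were 106 to 198 FPKM in CON-post and 57.4 to 164 in HFD-post, which overlapped. In CON-pre most of the list sum was Cfd, at 105 ± 24.5 FPKM, while in HFD-pre Cfd was the smaller part, at 27.4 ± 9.88 FPKM (SD, n = 4). The other 5 adipocyte markers summed to 38.4 to 56.7 FPKM in CON-pre and 39.0 to 56.9 in HFD-pre, and to 34.2 to 56.5 in CON-post and 33.9 to 118 in HFD-post, with overlap in both states. Muscle fibre markers were lower on average in HFD over both states, with 0 of 9 called by limma, 5 lower and 0 higher at an unadjusted p under 0.05 (10.4% of all genes in either direction), and a median log2 difference of -0.15 against -0.02 for all genes. Of the 34 tested targets of the MRFs and MEF2, 10 were lower and 2 higher at an unadjusted p under 0.05, with a median of -0.12. The lists share 4 genes (Acta1, Ckm, Mylpf and Tnnt3). The part of fat or of fibre markers in the diet differences of the factors was not tested.

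The proteins that control these factors were examined next, in lists chosen with earlier results of these data known. Of 27 tested regulators and cofactors of MEF2, 3 were called after the bout over both diets, all higher, beside 2.95% of all genes called higher, and the median of the list was -0.00 against 0.01 for all genes. Sik1, a kinase that phosphorylates class II histone deacetylases, had 1.80 ± 0.167 FPKM in CON-pre and 5.14 ± 0.252 in CON-post, and 1.67 ± 0.223 in HFD-pre and 4.15 ± 0.962 in HFD-post (SD, n = 4). Every post library was above every pre library, and Sik1 rose by 1.19 (limma adjusted p = 2.03e-06). Vgll2, a muscle cofactor that binds TEAD and MEF2 factors, rose by 0.96 (limma adjusted p = 3.20e-04), from 10.9 ± 2.16 to 21.8 ± 6.73 FPKM in CON and from 12.8 ± 0.997 to 25.7 ± 3.26 FPKM in HFD. Hdac5, one of the deacetylases that hold MEF2 inactive, rose by 0.28 (limma adjusted p = 0.0195). Sik1 and Vgll2 were also called within each diet, Vgll2 within HFD in 20 of 27 alternative analyses. Hdac4, of the same class, was 0.34 lower in HFD over both states without being called (log2 difference -0.34, limma adjusted p = 0.103).

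Among the partners of the MRFs a single gene was called. Of 13 tested E proteins, Id proteins and other inhibitors, 1 was called after the bout, beside 3.86% of all genes. Bhlhe40, a repressor of the helix-loop-helix family, fell by 0.46 (limma adjusted p = 0.0447), from 29.9 ± 6.52 to 22.8 ± 5.75 FPKM in CON and from 29.9 ± 2.88 to 20.8 ± 3.11 FPKM in HFD. The call is a narrow one, made in 13 of 26 alternative analyses. Of 21 other regulators of myogenesis, 1 rose and 2 fell, beside 2.95% and 0.915% of all genes. Rbm20, a splicing factor of titin, rose by 0.56 (limma adjusted p = 4.07e-04) and was called within each diet, although the call within HFD was made in 12 of 27 alternative analyses. Six4, a homeobox factor upstream of the MRFs, fell by 0.32 (limma adjusted p = 0.0207, but 0.0534 without CON-pre replicate 1) and Smyd1, a muscle methyltransferase, fell by 0.21 (limma adjusted p = 0.0280), a call made in 18 of 26 alternative analyses. The 3 calls of this list became 1 without CON-pre replicate 1 and 6 under quantile scaling. The lists had medians of 0.01 and -0.00 against 0.01 for all genes.

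Among known targets of the MRFs and MEF2, 7 of 34 tested were called higher after the bout and 0 lower, beside 2.95% and 0.915% of all genes, with a list median of 0.02 against 0.01 for all genes. Like the other lists, this one was chosen with earlier results of these data known, so its share is a description and no test of the targets. Ppargc1a (PGC-1alpha), a coactivator of mitochondrial genes, rose by 2.04 and Xirp1, an actin-binding protein of damaged fibres, by 1.82. Xirp1 went from 28.1 ± 7.66 to 146 ± 44.3 FPKM in CON and from 42.8 ± 7.38 to 109 ± 37.2 FPKM in HFD. Klhl40, which stabilises thin filament proteins, rose by 0.97, from 38.3 ± 0.840 to 91.4 ± 24.6 FPKM in CON and from 41.8 ± 7.80 to 72.4 ± 24.7 FPKM in HFD. Cdkn1a, the cell cycle inhibitor p21, rose by 0.56, Musk, the receptor kinase of the neuromuscular junction, by 0.54, Nrap, an anchoring protein at the ends of myofibrils, by 0.33, and desmin (Des) by 0.23. The other 27 tested targets were not called, among them the most abundant one, Acta1. Des was called in 12 of 26 alternative analyses and is therefore uncertain.

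**Figure D4:**
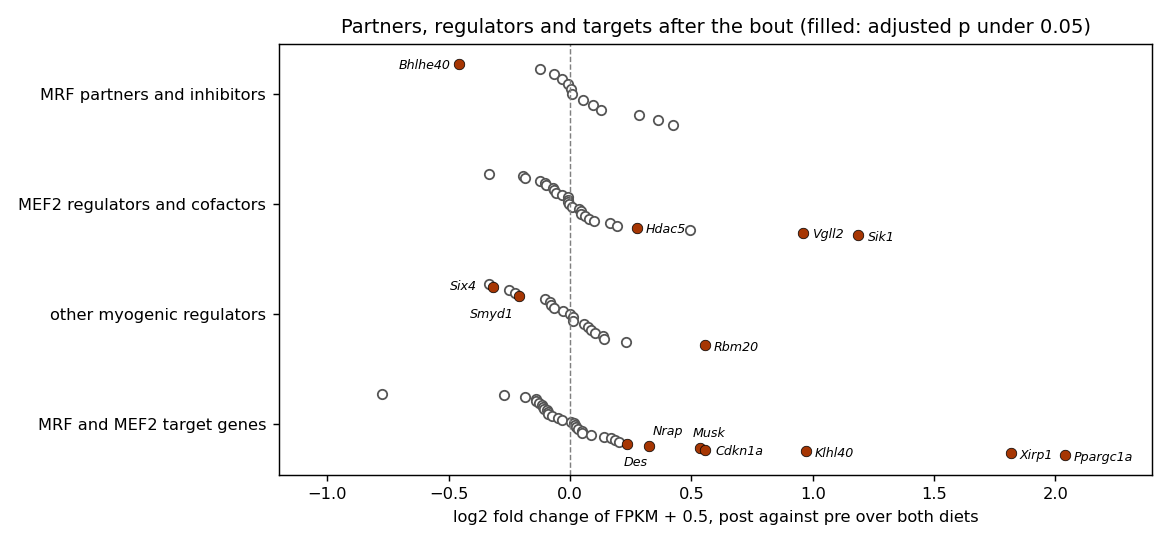
Difference between post and pre over both diets on the log2(FPKM + 0.5) scale (x axis) for each tested gene of 4 lists (y axis, spread within a list only for legibility), filled where the limma adjusted p was under 0.05. Ppargc1a (2.04), Xirp1 (1.82) and Sik1 (1.19) lie farthest to the right, and most genes of each list lie near 0.

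Musk was the one target called with diet. It had 4.30 ± 0.476 FPKM in CON-pre and 2.92 ± 0.335 in HFD-pre, and 6.84 ± 0.576 in CON-post and 4.23 ± 0.784 in HFD-post (SD, n = 4). In both states all HFD libraries were below all CON libraries. Over both states Musk fell by 0.57 with HFD (log2 difference -0.57, limma adjusted p = 0.00170). The comparison of HFD-post with CON-post had a limma adjusted p of 0.0422, a call made in 4 of 27 alternative analyses, and that of HFD-pre with CON-pre had 0.127. Musk thus shared with Myf6 a higher value after the bout and a lower one with HFD, although only the first was called for Myf6. These directions were not particular to them. Rbm20 and Sik1, both called higher after the bout, were also lower on average with HFD over both states without being called. Their log2 differences were -0.19 (limma adjusted p = 0.361) and -0.19 (limma adjusted p = 0.481).

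Proliferation markers were low. Of 8 of them, 2 were above 0.5 FPKM on average and 0 of them were called by limma after the bout, with 1 of 2 at an unadjusted p under 0.05, beside 18.5% of all genes. Mki67 lay at 0 to 0.473 FPKM and Top2a at 0 to 0.514 FPKM, both highest in HFD-post replicate 2.

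Finally, the genes whose log2 values followed each factor most closely over the 16 libraries were listed as a description. Nedd4l (Pearson r = 0.91), Zranb1 (0.90) and Slc39a14 (0.89) were nearest to Myf6, and Tmc7 (0.91), Bcorl1 (0.91) and Sp100 (0.89) to Mef2c. These libraries share 4 groups, so the values include the difference between pre and post. Mef2d was followed by Gpr56 (0.87) and Mef2a by Taf1b (0.82). For the low MRFs the nearest genes were less close, Spred2 (0.78) for Myod1 and, for Myog, 1700094D03Rik (0.75) and Tnnt1 (0.74), slow troponin T.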

How the data were processed

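Quadriceps RNA of 16 mice was sequenced by the authors (stranded mRNA libraries). TopHat was used for alignment and Cufflinks for expression, in versions not given in the sources used here. The deposited values are FPKM, which the authors obtained after scaling by transcript length and mapped fragments, so they are no counts, no count model was used and the number of reads behind a value is not in the table. The Methods give reads per sample only as an approximate figure for all libraries. Intervals therefore cover the spread between libraries only. The submitters' processing notes and the Methods name mm9, but 692 of 692 loci in the study's gene table overlapped the gene in GRCm38 and 114 in mm9, so positions are from RefSeq GRCm38.p6.

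Of 24487 entries, 27 with dates or numbers for names were left out (0.0771% of FPKM), and 260 repeated symbols were summed. A mean of 0.5 FPKM or more was required for testing (11256 genes, with 7 of the 9 factors). The limma package (3.58.1, R 4.3.3) was fitted to log2(FPKM + 0.5) of all 4 groups at once, with a trend of variance on level and no covariates. Calls were made at an adjusted p under 0.05 (Benjamini-Hochberg, all genes tested). Contrasts over both diets or both states average the 2 single ones, with which they share libraries. Myf5 and Pax7 were compared by exact permutation tests. The code was tested on simulated data. Python 3.11.15 was used for tables and figures.

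The 9 factors and the 15 gene lists (partners, regulators, targets and markers) were chosen with earlier results of these data known, and the lists share genes. The genes named were all factors, the called genes of each list (up to 6 a comparison) or otherwise up to 2 with the lowest p, the most abundant marker, and the 3 genes most like each factor. Des, the called target with the highest adjusted p, is beyond the limit of 6 and was named after its values were seen. All columns were used (0 left out). The p-values set differences between groups against the spread between these libraries. The labels do not say how the animals of a group were housed or processed, so differences in housing or processing cannot be told apart from those of the groups. Replicate numbers did not pair libraries: the deviations of same-numbered libraries had correlations of -0.22 to 0.21 (24 pairs, median -0.02). Alternatives were other pseudocounts, filters, scalings, weights and thresholds, a fit without trend, a fit of only the groups compared, a replicate block, and the omission of each library.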

Additional observations from a re-analysis of the deposited data

Results flagged for a closer look

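Of the 36 combinations of a factor and a group, 1 held a library far from the others. Mef2c in HFD-post replicate 3 was at 82.0 FPKM, while the other 3 libraries of that group were at 92.9 to 94.6, a gap of 0.869 of the whole range. By chance about 1 in 20 groups is marked in this way.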

How the results depend on the processing

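The replicate numbers did not pair the libraries, and with a replicate block 2 factors were still called over both diets and 0 in the other comparisons. In CON-post against CON-pre, 0 factors were called, but 1 was called after quantile, upper-quartile or median-of-ratios scaling and with array weights, 2 at an adjusted p under 0.1, 3 at an unadjusted p under 0.05 (11.1% of all genes), and 0 to 1 when each library was left out (1 without CON-post replicate 2, CON-post replicate 3 or HFD-post replicate 3). At an unadjusted p, 1 factor was found in HFD-post against HFD-pre (11.7% of all genes), 1 in HFD-post against CON-post (6.29%) and 2 with diet over both states (10.4%), in place of 0. Over both diets, the 2 calls fell to 1 under quantile scaling, and to between 1 and 2 when libraries were left out. The cause of these changes was not tested. A fit of only the groups compared could not be run for contrasts over 4 groups.

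Some differences that were not called changed sign. With scaling by the upper quartile, by median of ratios and by quantiles, in that order, HFD-post against HFD-pre gave -0.0333, -0.0250 and -0.0316 for Myod1 and -0.0323, -0.0233 and -0.0366 for Mef2d, HFD-pre against CON-pre gave 0.0250, 0.0294 and 0.0277 for Myod1, and the interaction of Mef2a was -0.0237, -0.0325 and -0.0048. Quantile scaling alone gave -0.0010 for Mef2a in HFD-post against HFD-pre, -0.00048 for Mef2d over both diets and 0.0151 for Foxn2 with diet over both states. When each library was left out, CON-post against CON-pre ran from -0.177 to 0.0715 for Myod1, -0.347 to 0.0222 for Myog and -0.0169 to 0.0897 for Mef2a. HFD-post against HFD-pre ran from -0.0624 to 0.0823 for Myod1, -0.197 to 0.0863 for Myog, -0.0300 to 0.0791 for Mef2d, -0.129 to 0.232 for Myf5 and -0.00033 to 0.0722 for Pax7. HFD-pre against CON-pre ran from -0.120 to 0.122 for Myod1, -0.0864 to 0.204 for Foxn2 and -0.136 to 0.050 for Myf5, and HFD-post against CON-post from -0.0701 to 0.138 for Myod1. The interaction ran from -0.0591 to 0.189 for Myod1, -0.0668 to 0.302 for Myog, -0.0280 to 0.0786 for Mef2a and -0.107 to 0.0030 for Mef2d. Myod1 ran from -0.0822 to 0.0420 over both diets, and with diet over both states Myod1 ran from -0.0406 to 0.0955, Mef2c from -0.0013 to 0.0467 and Foxn2 from -0.0978 to 0.0475. Of all 11256 genes, 246 to 591 were called over both diets under these alternatives (435 in the fit reported), 72 to 190 in CON (125) and 21 to 79 in HFD (61).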
